A study of Arabidopsis thaliana with 9 samples.

Results

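The phenylpropanoid, flavonoid and anthocyanin pathway was examined through 39 Arabidopsis thaliana genes, chosen by locus from the 33602 loci of the deposited expression table. They comprise 6 genes of general phenylpropanoid metabolism, 6 early flavonoid genes, 9 late anthocyanin genes, 3 flavonoid 3-O-glycosyltransferases, 8 activators of the late genes, 3 activators of the early genes and 4 repressors. All 39 were found in the table, and 26 averaged at least 1 in abundance across the 9 samples and were tested. The other 13 were too low for the test and are described by their levels.

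The poly(A) RNA came from the young leaves of Col-0 rosettes aged 8 weeks, raised in short days and harvested 2 h into the light period at 125 μE m-2 s-1. Wild type was compared with the 2cpab double mutant, mutated in both chloroplast 2-Cys peroxiredoxins (2CPA and 2CPB), and with the ntrc-2cpab triple mutant, mutated as well in NTRC, an NADPH-dependent thioredoxin reductase. Each genotype had 3 samples, each a pool of leaves from 3 plants. The labels name no insertion line or allele, and a mutant of NTRC alone was not analysed here.

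Phenylpropanoid metabolism turns phenylalanine into activated cinnamic acids, from which lignin, sinapate esters and flavonoids are built. In Arabidopsis the early flavonoid genes lead to flavonols and are switched on by the MYB factors MYB11, MYB12 and MYB111. The late genes lead on to the red and purple anthocyanins of stressed leaves and are switched on by complexes of a MYB such as PAP1, a bHLH protein such as TT8, GL3 or EGL3, and the WD-repeat protein TTG1.

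The promoters of 5 pathway genes are shown because these genes stand for the early and late groups whose levels are compared below. Each is the 250 bases before the annotated gene start, read from TAIR10.1 on the strand of the gene. Capitals mark the G-box CACGTG, a motif bound by bHLH and bZIP factors, and the AC elements bound by MYB factors. The AC elements were spelled ACCTACC in the first form, ACCAACC in the second form and ACCTAAC in the third form, and every motif was searched on both strands. The window of UGT75C1 is not shown because it runs into the neighbouring gene AT4G14096.
CHS, chr5:4488226-4488475, plus strand: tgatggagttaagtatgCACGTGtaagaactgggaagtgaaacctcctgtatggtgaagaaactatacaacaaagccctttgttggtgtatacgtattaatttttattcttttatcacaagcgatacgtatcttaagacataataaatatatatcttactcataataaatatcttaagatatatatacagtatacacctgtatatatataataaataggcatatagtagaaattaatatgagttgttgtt
CHI, chr3:20431598-20431847, minus strand: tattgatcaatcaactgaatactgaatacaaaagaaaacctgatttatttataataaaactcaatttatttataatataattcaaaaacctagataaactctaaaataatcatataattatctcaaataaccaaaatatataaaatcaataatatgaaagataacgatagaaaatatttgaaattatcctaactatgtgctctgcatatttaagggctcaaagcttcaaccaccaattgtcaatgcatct
CHIL, chr5:1563036-1563285, plus strand: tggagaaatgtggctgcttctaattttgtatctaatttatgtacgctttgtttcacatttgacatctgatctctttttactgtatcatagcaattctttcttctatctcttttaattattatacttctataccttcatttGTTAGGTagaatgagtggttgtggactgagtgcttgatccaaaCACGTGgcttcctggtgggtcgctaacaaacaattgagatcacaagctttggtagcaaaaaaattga
DFR, chr5:17166033-17166282, minus strand: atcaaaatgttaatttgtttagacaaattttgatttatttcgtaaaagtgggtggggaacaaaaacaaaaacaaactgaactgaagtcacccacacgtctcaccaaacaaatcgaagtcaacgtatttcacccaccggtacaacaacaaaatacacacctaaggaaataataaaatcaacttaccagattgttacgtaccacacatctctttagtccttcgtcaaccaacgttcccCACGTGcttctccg
LDOX, chr4:12006210-12006459, minus strand: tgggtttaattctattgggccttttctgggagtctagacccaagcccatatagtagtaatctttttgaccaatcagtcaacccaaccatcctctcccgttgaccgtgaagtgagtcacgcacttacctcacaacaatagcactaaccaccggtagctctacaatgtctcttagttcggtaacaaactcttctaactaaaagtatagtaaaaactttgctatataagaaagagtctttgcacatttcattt
A G-box lay 233 to 228 bases before the start of CHS, 67 to 62 bases before that of CHIL and 14 to 9 bases before that of DFR. CHIL also held GTTAGGT, which is ACCTAAC read on the other strand, 110 to 104 bases before its start. Neither motif was in the windows of CHI and LDOX, so the early and late genes shown do not divide by these letters.

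Over the 39 windows, a G-box occurred in 9 (23.1%), against 6.49% of 27443 promoters of the same length. AC elements occurred in 8 (20.5%), against 6.12%. The looser E-box CANNTG, which includes every G-box, occurred in 24 (61.5%), against 55.3%. The G-box was in early genes (CHS, CHIL, F3H), late genes (DFR, UGT79B1, SCPL10) and regulators (PAP2, MYB114, MYB12). These matches describe the letters only.

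The tissue and genotype labels were checked first. The summed abundance of the leaf mesophyll markers RBCS1A, RCA, LHCB2.1 and LHCB6 spanned 17440 to 22900 in the wild type, against 15350 to 17270 for 2cpab and 15860 to 17240 for ntrc-2cpab, so both mutants lay below the wild type, and the part of this in the results was not tested. The 4 trichome markers summed to 2.998 to 6.24 over all samples, and the 3 guard cell markers to 20.3 to 23.6 in the wild type and 14.3 to 19.7 in the mutants. Flower markers summed to at most 0.196, and the senescence gene SAG12 was listed at 0 throughout. 2CPA stood at 259 to 325 in the wild type and 3.43 to 4.85 in the mutants, 2CPB at 53.0 to 63.4 and 8.88 to 10.8. NTRC stood at 74.5, 80.2 and 76.1 in the wild type, at 60.9, 64.7 and 68.1 in 2cpab and at 14.7 to 18.3 in the triple mutant. All 2cpab values of NTRC thus lay below the wild type, without passing limma's test (log2 fold change -0.25, adjusted p = 0.217). Abundance here is the deposited value with its log2 and its offset of 1 removed, in the scaled units of the authors. In such bulk samples, fewer cells of a type and less RNA per cell cannot be told apart.

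A few samples stood apart within their genotype. Sample 3 of ntrc-2cpab was the lowest of the 9 samples for 17 of the 26 tested members. For the 20 tested members that are not regulators the count was 16. Sample 1 of the wild type was the highest for 10 of the 26. Sample 2 of the wild type was the lowest wild-type sample for 9 of the 9 late anthocyanin genes. These counts were made over pathway members only. Whether the same samples stood apart as much over all genes was not examined. The salicylic acid response genes also varied within genotypes. PR1 stood at 0.259, 24.4 and 3.90 in wild-type samples 1 to 3, with 12.4, 8.67 and 26.5 for 2cpab and 1.61, 40.6 and 49.6 for ntrc-2cpab. Thus wild-type sample 2, low in late genes, had the highest PR1 of its genotype, and so did sample 3 of ntrc-2cpab. In ntrc-2cpab, samples 1 to 3 were successively higher in PR1 and lower in the mean log2 deviation described below. Their late genes deviated by -0.06, -0.10 and -0.62 and their early genes by 0.10, -0.29 and -0.74. Sample 2 of ntrc-2cpab, with PR1 at 40.6, was nevertheless the lowest of the 9 samples for 0 of the 26 tested members. In 2cpab the order depended on the measure. Sample 3 had the highest PR1 and the highest summed abundance of late genes (24.55, against 22.36 and 23.99). By mean deviation its late genes lay at -0.06, against -0.15 and 0.02 in samples 1 and 2. Its early genes lay at -0.12, against 0.13 and 0.20. The summed level of PR1, PR2 and PR5 spanned 15.7 to 142 in the wild type, against 92.6 to 169 for 2cpab and 69.0 to 219 for ntrc-2cpab. The part of this response in the results below was not tested.

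**Figure D1:**
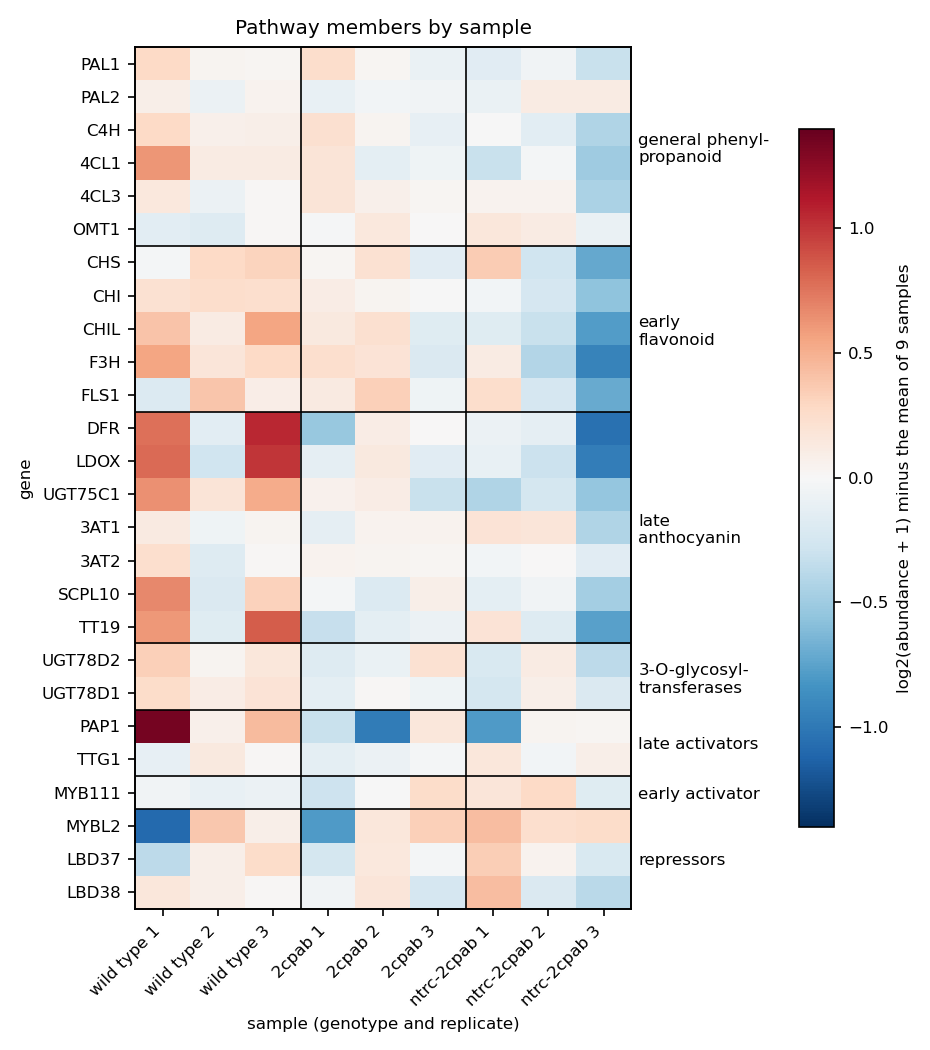
Heat map of the 26 tested members (rows, grouped by role) in the 9 samples (columns). Colour gives log2(abundance + 1) minus the mean of the gene over the 9 samples, red above and blue below it. The late genes DFR, LDOX and TT19 are reddest in wild-type samples 1 and 3, and most enzyme genes are blue in sample 3 of ntrc-2cpab.

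The triple mutant was compared with the wild type to ask how the pathway stood with NTRC and both peroxiredoxins mutated. Of the 26 tested members 3 passed the test: chalcone isomerase (CHI), the chalcone isomerase-like protein CHIL, which aids chalcone synthase, and the anthocyanin 5-O-glucosyltransferase UGT75C1 fell. CHI stood at 66.8% of its wild-type mean, CHIL at 57.2% and UGT75C1 at 41.4%. No member rose, and the other 23, CHS, F3H, DFR and LDOX among them, did not pass.

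These 3 genes are 11.5% of the 26 tested members, against 1.33% of all 16384 tested genes called lower in this comparison and 2.61% called higher. By a looser count, 9 members (34.6%) had ranges wholly below the wild type, against 13.9% of all genes, and none wholly above, against 14.3%. At an unadjusted p under 0.05, 14 members (53.8%) were lower, against 11.3% of all genes, and none was higher, against 13.1%. The log2 fold change was below 0 in 20 members (76.9%) and in 49.6% of all genes. The list was chosen with earlier results of these data known, so shares here and below are a description and not independent evidence. The 3 calls rest on all 9 samples. Without wild-type sample 1 or 3, or without ntrc-2cpab sample 1 or 3, 0 members were called. Without any 1 of the 2cpab samples or ntrc-2cpab sample 2, only UGT75C1 was. Without wild-type sample 2, 5 members were called lower (CHIL, DFR, LDOX, UGT75C1 and SCPL10).

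In general phenylpropanoid metabolism none of the 6 genes passed the test, and their median log2 fold change was -0.22, against 0.0018 over all genes. PAL1 and PAL2 encode phenylalanine ammonia-lyase, the entry enzyme. PAL1 stood at 55.5, 46.7 and 46.2 in the wild type, with 54.1, 46.5 and 42.4 for 2cpab and 40.5, 43.8 and 36.4 for ntrc-2cpab. All triple-mutant values lay below the wild type, with a log2 fold change of -0.29 ± 0.12 (SE; adjusted p = 0.163). PAL2 stood at 34.4, 30.6 and 33.8 in the wild type, with 30.3, 31.7 and 31.4 for 2cpab and 30.3, 35.3 and 35.2 for ntrc-2cpab, and its groups overlapped throughout.

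C4H, cinnamate 4-hydroxylase, stood at 66.5, 57.1 and 57.9 in the wild type, with 63.9, 56.0 and 50.1 for 2cpab and 54.1, 49.1 and 40.4 for ntrc-2cpab. The triple mutant lay wholly below the wild type, at -0.34 ± 0.13 (SE, log2; adjusted p = 0.144), or -0.22 without ntrc-2cpab sample 3. 4CL1, a 4-coumarate-CoA ligase, stood at 41.9, 29.4 and 29.4 in the wild type, with 30.8, 24.5 and 25.8 for 2cpab and 21.5, 26.5 and 18.8 for ntrc-2cpab. Its ranges were apart as well, at -0.56 ± 0.16 (SE, log2; adjusted p = 0.0846). 4CL3, the ligase linked to flavonoids, stood at 5.52, 4.56 and 4.96 in the wild type, with 5.65, 5.17 and 4.995 for 2cpab and 5.12, 5.08 and 3.32 for ntrc-2cpab. Only sample 3 of the triple mutant lay below the others. OMT1, an O-methyltransferase of flavonols and phenolic acids, ranged from 45.9 to 58.4 with overlapping groups.

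Of the 6 early flavonoid genes 5 were tested, 2 fell in ntrc-2cpab and the median log2 fold change was -0.51. Chalcone synthase (CHS), which makes the first flavonoid skeleton, stood at 141, 175 and 178 in the wild type, with 147, 167 and 128 for 2cpab and 184, 118 and 86.8 for ntrc-2cpab. The triple mutant held both the highest and the lowest sample, so the groups overlapped (log2 fold change -0.41 ± 0.23, SE; adjusted p = 0.320). It was -0.15 without ntrc-2cpab sample 3 and -0.69 without ntrc-2cpab sample 1. CHI (AT3G55120, chr3:20430059-20431597, TAIR10.1, minus strand) stood at 7.01, 7.17 and 7.11 in the wild type, with 6.41, 6.07 and 5.86 for 2cpab and 5.70, 4.84 and 3.68 for ntrc-2cpab. The wild-type samples were almost level, all 2cpab samples lay below them and all triple-mutant samples lower still. CHI fell by 0.51 ± 0.12 on the log2 scale in ntrc-2cpab (SE; adjusted p = 0.0453), a call kept in none of the 9 fits that left out 1 sample.

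CHIL (AT5G05270, chr5:1563286-1565324, plus strand) stood at 23.6, 19.3 and 26.4 in the wild type, with 19.5, 20.9 and 15.6 for 2cpab and 15.7, 14.1 and 9.86 for ntrc-2cpab. The triple mutant lay wholly below the wild type, while 2cpab overlapped both. CHIL fell by 0.77 ± 0.18 (SE, log2; adjusted p = 0.0462), and this held in 1 of the 9 fits without a sample. F3H, flavanone 3-hydroxylase, stood at 25.8, 19.5 and 21.2 in the wild type, with 20.4, 19.8 and 14.8 for 2cpab and 18.8, 12.8 and 8.52 for ntrc-2cpab. Its ranges were also apart between ntrc-2cpab and the wild type, at -0.74 ± 0.24 (SE, log2; adjusted p = 0.104), and at -0.48 without ntrc-2cpab sample 3 (adjusted p = 0.236). An antisense long non-coding RNA, AT3G51238, overlaps F3H by 1588 bases and stood at 0.447 to 1.60. FLS1, flavonol synthase, stood at 7.03, 11.0 and 8.76 in the wild type, with 9.004, 10.6 and 7.82 for 2cpab and 9.92, 6.77 and 4.64 for ntrc-2cpab. Its groups overlapped. F3'H, which adds a hydroxyl group to the B ring, was not tested and ranged from 0.457 to 0.986 with overlapping groups.

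Of the 9 late anthocyanin genes 7 were tested, 1 fell in ntrc-2cpab and the median log2 fold change was -0.68. Dihydroflavonol reductase (DFR) stood at 3.96, 1.62 and 5.01 in the wild type, with 1.002, 2.12 and 1.90 for 2cpab and 1.74, 1.66 and 0.411 for ntrc-2cpab. Wild-type samples 1 and 3 lay above every mutant sample, while sample 2 lay among them. Its log2 fold change in ntrc-2cpab was -0.97 ± 0.34 (SE; adjusted p = 0.129), and leaving out 1 sample gave -1.33 without wild-type sample 2 (adjusted p = 0.0436) but -0.73 without wild-type sample 3 (0.279) and -0.66 without ntrc-2cpab sample 3 (0.320). LDOX, leucoanthocyanidin dioxygenase, stood at 3.47, 1.13 and 4.18 in the wild type, with 1.37, 1.83 and 1.31 for 2cpab and 1.404, 1.10 and 0.316 for ntrc-2cpab. Again only wild-type samples 1 and 3 stood above the mutants. Its log2 fold change was -0.97 ± 0.32 (SE; adjusted p = 0.115), and it was -1.36 without wild-type sample 2 (adjusted p = 0.0246) but -0.72 without wild-type sample 3 (0.252) and -0.71 without ntrc-2cpab sample 3 (0.292).

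UGT75C1 (AT4G14090, chr4:8122188-8123835, TAIR10.1, minus strand) stood at 3.84, 2.52 and 3.46 in the wild type, with 2.24, 2.34 and 1.497 for 2cpab and 1.32, 1.61 and 1.14 for ntrc-2cpab. All mutant samples lay below all wild-type samples. It fell by 0.85 ± 0.15 on the log2 scale in ntrc-2cpab (SE; adjusted p = 0.0240), and this held in 5 of the 9 fits without a sample. It overlaps AT4G14100 on the other strand by 230 bases, a gene at 8.26 to 11.5, and the sources used here do not say whether reads were assigned by strand. TT19, the glutathione S-transferase that brings anthocyanins to the vacuole, stood at 3.88, 1.84 and 4.75 in the wild type, with 1.56, 1.91 and 2.02 for 2cpab and 2.66, 1.81 and 0.882 for ntrc-2cpab. It followed DFR in the wild type, with samples 1 and 3 high, and had a log2 fold change of -0.68 ± 0.28 (SE; adjusted p = 0.180), or -0.42 without ntrc-2cpab sample 3. TT19 overlaps AT5G17230 by 108 bases, also on the other strand, and that gene stood at 62.5 to 74.5.

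The remaining late genes finish the anthocyanin molecule. The sinapoyl acyltransferase SCPL10 spanned 10.3 to 19.8 in wild-type and 8.39 to 12.8 in mutant samples. The xylosyltransferase UGT79B1, with a mean just under the limit of 1, stood at 2.23, 0.671 and 2.39 in the wild type and at 0.369 to 0.962 in the mutants. The malonyltransferase 5MAT stood at 1.19, 0.471 and 1.28 and at 0.269 to 0.509. UGT79B1 and 5MAT thus showed the same division of the wild type, with sample 2 at the mutant level. The coumaroyltransferases 3AT1 (1.37 to 2.63) and 3AT2 (1.43 to 2.25) did not share it, and their coding sequences are 96.4% identical over 1054 aligned bases, so reads may be split between them.

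**Figure D2:**
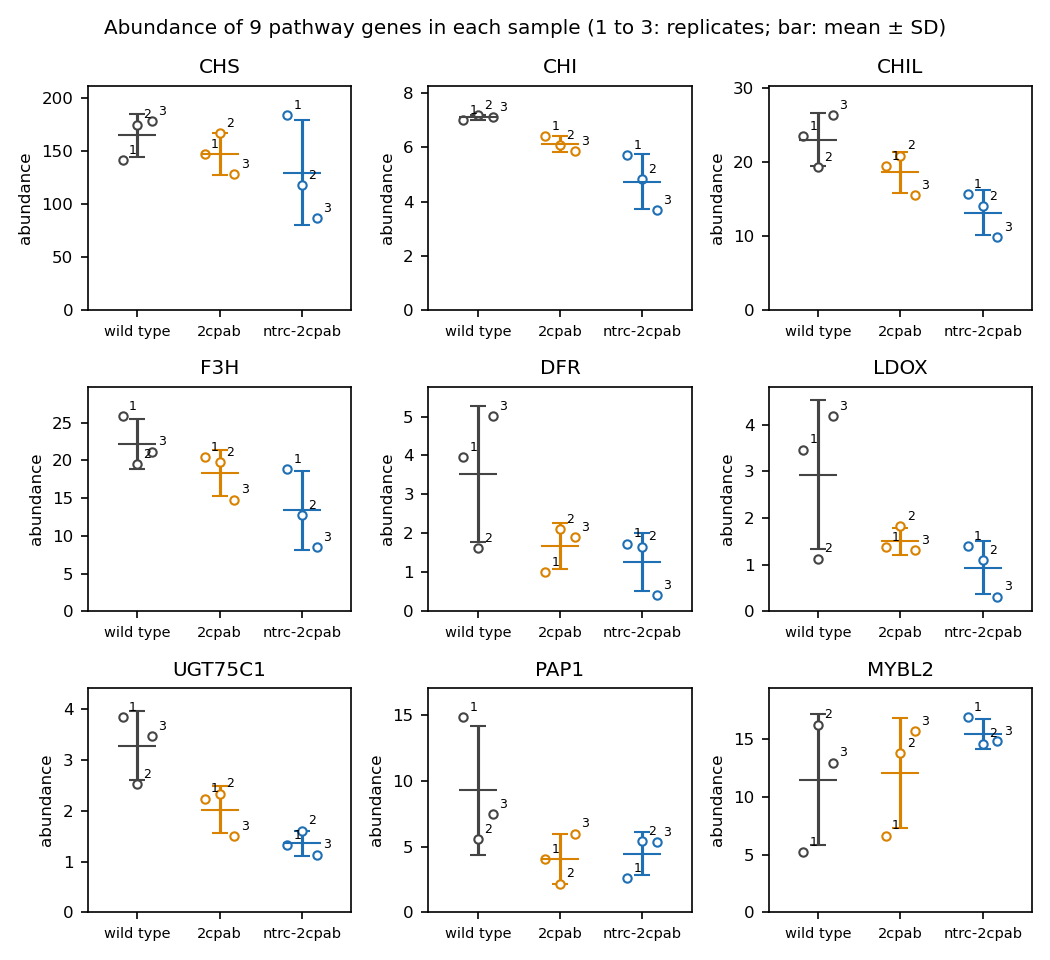
Abundance of 9 members (vertical axis, scaled units of the authors, from 0) in each sample by genotype (horizontal axis); open points are samples with their replicate number, and bars are mean ± SD of 3. CHI and UGT75C1 lie below every wild-type sample in both mutants, whereas DFR and LDOX are high in wild-type samples 1 and 3 only.

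Among the 3-O-glycosyltransferases, the flavonol rhamnosyltransferase UGT78D1 spanned 35.3 to 39.4 in the wild type, against 29.6 to 33.1 for 2cpab and 27.5 to 34.7 for ntrc-2cpab. Both mutants lay below the wild type without passing the test, at -0.25 and -0.31 (log2; adjusted p = 0.238 and 0.102). The glucosyltransferase UGT78D2 ranged from 8.24 to 14.1 with overlapping groups, and UGT78D3 stayed at or under 0.235.

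Early and late steps were then set against each other within each sample, as the mean deviation of log2(abundance + 1) from the 9-sample mean over the 5 early and the 7 late genes tested. Early genes deviated by 0.19, 0.24 and 0.29 in the wild type, with 0.13, 0.20 and -0.12 for 2cpab and 0.10, -0.29 and -0.74 for ntrc-2cpab. Late genes deviated by 0.55, -0.12 and 0.54, by -0.15, 0.02 and -0.06, and by -0.06, -0.10 and -0.62. In the wild type the early mean was level and the late mean divided, and in the triple mutant both means were spread. Single early genes were less level than their mean. Wild-type sample 1 was the lowest of its genotype for CHS and FLS1 but the highest for F3H.

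The late minus early difference was 0.36, -0.36 and 0.25 in the wild type, with -0.27, -0.19 and 0.06 for 2cpab and -0.16, 0.19 and 0.12 for ntrc-2cpab. The genotypes overlapped. Between ntrc-2cpab and the wild type it moved by -0.03, between 2cpab and the wild type by -0.21, and between the mutants by 0.18. For scale, the pooled SD of single samples within genotypes was 0.27, and no test was run on these differences. Without wild-type sample 2 the first 2 of these were -0.26 and -0.44. Without wild-type sample 1 they were 0.11 and -0.07. The offset of 1 also shrinks the fold changes of low genes, such as the late genes DFR and LDOX. With an offset of 0.1 the first 2 differences were -0.25 and -0.32, and with an offset of 5 they were 0.15 and -0.06. Whether late steps shifted against early steps is thus not settled with these samples.

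**Figure D3:**
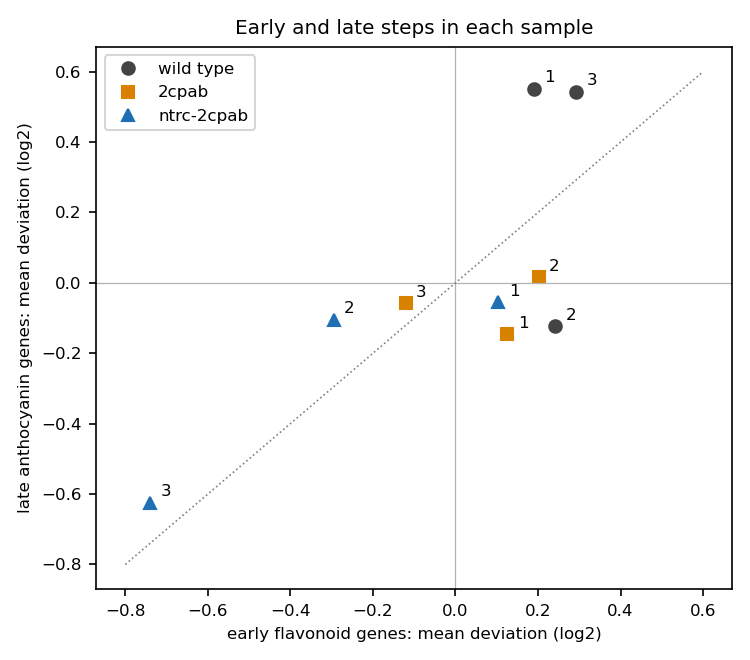
Mean deviation of the 7 tested late genes (vertical axis, log2) against that of the 5 tested early genes (horizontal axis, log2) for each sample, numbered by replicate; the dotted line marks equal deviation. Wild-type samples 1 and 3 lie above the line at 0.55 and 0.54, sample 2 lies below it at -0.12, and ntrc-2cpab sample 3 is lowest on both axes.

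The double mutant was compared with the wild type for the effect of the peroxiredoxin mutations without that of NTRC. No member passed limma's test (0 of 26), against 0.0671% of all genes called lower and 0.0671% called higher. At an unadjusted p under 0.05, 3 members were lower (UGT75C1, UGT78D1 and PAP1; 11.5%, against 8.3% of all genes) and none was higher, against 9.02%. Ranges lay wholly below the wild type for 3 members (CHI, UGT75C1 and UGT78D1; 11.5%), against 11.6% of all genes, and wholly above for none, against 11%. The log2 fold change was below 0 in 20 members (76.9%), against 50.0% of all genes. The shares of members that were lower by p or by range were near the background. UGT75C1 stood at 61.8% of the wild-type mean (log2 fold change -0.50 ± 0.15, SE; adjusted p = 0.157) and CHI at 86.2% (-0.19 ± 0.12; adjusted p = 0.445). By role, the median log2 fold change was -0.07 for the general, -0.19 for the early and -0.50 for the late genes, against 5e-05 over all genes. This comparison shares its wild-type samples with the one above, so their values stand side by side and do not count as separate evidence.

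**Figure D4:**
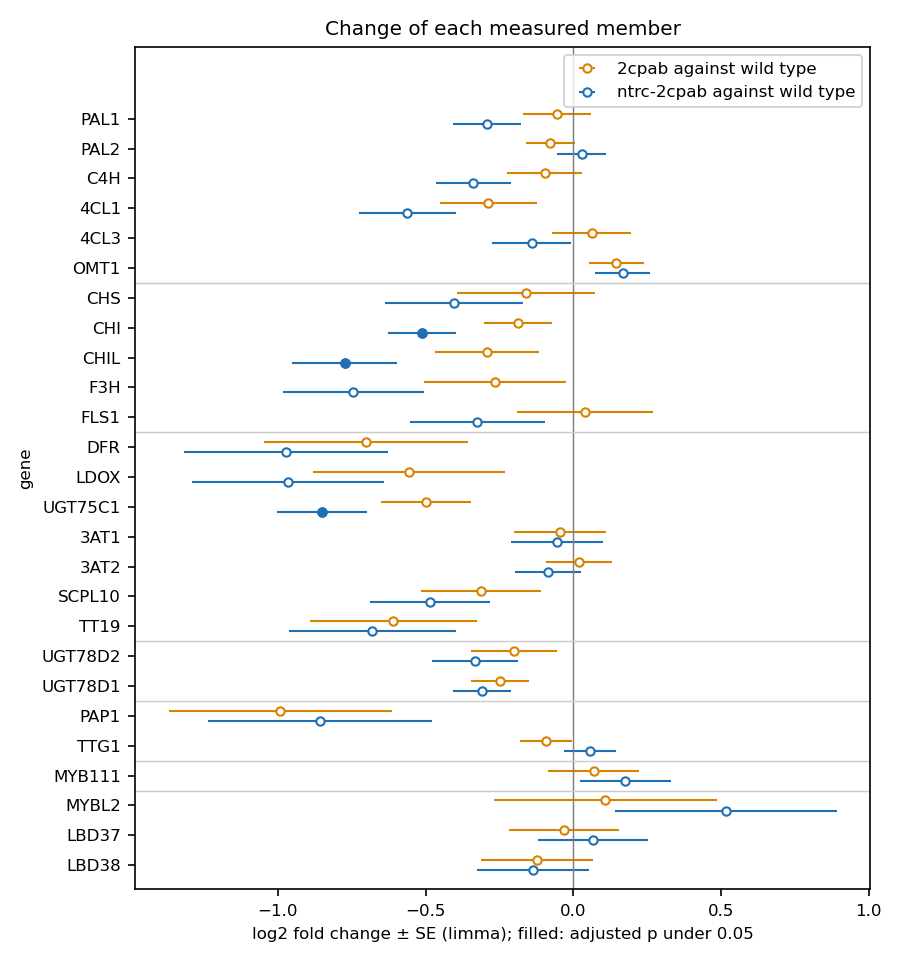
Log2 fold change ± SE (horizontal axis) of the 26 tested members (vertical axis, by role) in 2cpab (orange) and ntrc-2cpab (blue) against the same wild-type samples; filled points passed an adjusted p of 0.05. The 3 filled points are CHI, CHIL and UGT75C1 in ntrc-2cpab, at -0.51, -0.77 and -0.85.

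The mutants were compared with each other for the NTRC mutation on top of those of the peroxiredoxins. No member passed limma's test (0 of 26), against 0.0061% of all genes lower and 0% higher. At an unadjusted p under 0.05, 3 members were lower in ntrc-2cpab (CHI, CHIL and UGT75C1; 11.5%, against 2.18% of all genes) and none was higher, against 2.14%. They are the same 3 members that were called in ntrc-2cpab against the wild type. Both comparisons use the same ntrc-2cpab samples, so this one does not count as separate evidence. Ranges lay wholly below 2cpab for CHI and 3AT2 (7.69%, against 4.53%) and wholly above for none, against 5.37%. CHIL had a log2 fold change of -0.48 ± 0.18, CHI of -0.33 ± 0.12 and UGT75C1 of -0.35 ± 0.15 (SE; adjusted p = 0.993 for each). Without ntrc-2cpab sample 3, CHIL was at -0.30 and CHI at -0.19. The median was -0.22 for the general, -0.36 for the early and -0.17 for the late genes.

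Of the regulators, PAP1 was the one MYB activator of the late genes above the limit. It stood at 14.9, 5.56 and 7.48 in the wild type, with 4.03, 2.18 and 5.997 for 2cpab and 2.604, 5.45 and 5.38 for ntrc-2cpab. Wild-type sample 1 was far above the rest, the triple mutant lay just below the lowest wild-type sample, and 2cpab overlapped it. Its log2 fold change was -0.99 ± 0.38 in 2cpab (SE; adjusted p = 0.224) and -0.86 ± 0.38 in ntrc-2cpab (adjusted p = 0.202). Without wild-type sample 1 these were -0.63 and -0.49. PAP1 and DFR shared part of their order over the samples. Wild-type samples 1 and 3 stood above all other samples for both genes, with PAP1 highest in sample 1 and DFR in sample 3. Within the mutants the order differed. Sample 2 of 2cpab and sample 1 of ntrc-2cpab held the lowest PAP1 but the highest DFR of their genotype.

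The relatives of PAP1 were near 0. PAP2 was listed at 0 in the wild type and in ntrc-2cpab, and at 0, 0.110 and 0.124 in 2cpab. MYB113 reached at most 0.216 and MYB114 at most 0.181. MYB113, MYB114 and PAP2 lie in a row on chromosome 1, with gaps of 2536 and 4987 bases, and MYB114 and PAP2 are 90.5% identical over 423 aligned coding bases. The annotated MYB114 coding sequence has 139 codons, against 248 in PAP1.

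The bHLH partners were low as well. TT8 stood at 0.302, 0.126 and 0.242 in the wild type, with 0.167, 0.212 and 0.130 for 2cpab and 0.295, 0.113 and 0.152 for ntrc-2cpab. EGL3 stood at 0.393, 0.399 and 0.515, at 0.276, 0.503 and 0.328, and at 0.170, 0.412 and 0.206. Both overlapped between genotypes. GL3 stood at 0.388, 0.308 and 0.234 in the wild type, with 0.302, 0.232 and 0.158 for 2cpab and 0.128, 0.172 and 0.168 for ntrc-2cpab. Its triple-mutant samples lay below the wild type, and without the limit on abundance its log2 fold change was -0.18 ± 0.05 (SE; unadjusted p = 0.0105, adjusted p = 0.149). TTG1 stood at 9.37, 11.4 and 10.4 in the wild type, with 9.21, 9.67 and 10.04 for 2cpab and 11.6, 9.94 and 11.0 for ntrc-2cpab, with overlapping groups.

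Of the flavonol activators, MYB111 stood at 1.58, 1.48 and 1.52 in the wild type, with 1.19, 1.67 and 2.19 for 2cpab and 2.02, 2.26 and 1.37 for ntrc-2cpab. The mutants spread to both sides of a level wild type. MYB12 was under the limit, at 0.261, 0.340 and 0.135 in the wild type, with 0.143, 0.140 and 0.0929 for 2cpab and 0, 0.0470 and 0.0800 for ntrc-2cpab. Its triple-mutant samples lay below all others. When every locus was tested without the limit its log2 fold change was -0.25 ± 0.06 (SE; adjusted p = 0.0854). MYB11 reached at most 0.105.

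None of the repressors passed the test. MYBL2, an R3-type MYB that competes within the activator complex, stood at 5.24, 16.2 and 13.0 in the wild type, with 6.64, 13.8 and 15.7 for 2cpab and 16.9, 14.6 and 14.8 for ntrc-2cpab. It was low in sample 1 of the wild type and of 2cpab and level in the triple mutant (0.52 ± 0.38 against the wild type, SE, log2; adjusted p = 0.434). Without wild-type sample 1 this was 0.08, and without wild-type sample 2 it was 0.81. CPC, a single-repeat MYB, was under the limit, at 0.0888, 0.379 and 0.409 in the wild type, with 0.608, 0.687 and 0.790 for 2cpab and 0.606, 0.326 and 0.583 for ntrc-2cpab. All 2cpab samples lay above the wild type, with a log2 fold change of 0.40 ± 0.11 without the limit (SE; adjusted p = 0.216).

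The nitrogen-responsive repressor LBD37 stood at 8.36, 11.7 and 13.4 in the wild type, with 9.15, 12.4 and 10.9 for 2cpab and 14.3, 11.5 and 9.38 for ntrc-2cpab. Its relative LBD38 stood at 3.95, 3.66 and 3.48, at 3.28, 3.98 and 2.76, and at 4.94, 2.84 and 2.41. Both overlapped between genotypes, and their coding sequences are 82.6% identical over 597 aligned bases.

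Neighbouring branches held 39 further genes in 6 lists. Of 13 monolignol and sinapate genes 12 were tested and 1 fell in ntrc-2cpab against the wild type, with a median of -0.15. Of all tested genes, 1.33% were called lower in this comparison. The gene that fell was C3H1, the coumaroyl shikimate 3'-hydroxylase of lignin synthesis. It stood at 17.2, 14.1 and 14.7 in the wild type, with 14.5, 14.0 and 13.4 for 2cpab and 11.2, 12.1 and 11.6 for ntrc-2cpab. The triple mutant lay below all other samples, and C3H1 fell by 0.37 ± 0.08 (SE, log2; adjusted p = 0.0453), which held in 1 of the 9 fits without a sample. The 5 xylem markers summed to 27.7 to 30.3 in the wild type, against 24.8 to 32.6 for 2cpab and 22.5 to 27.9 for ntrc-2cpab, and their part in this result was not tested. The most abundant genes of this branch, CCoAOMT1, F5H and CCR1, had log2 fold changes of -0.15, -0.13 and -0.21 (adjusted p = 0.348, 0.411 and 0.213).

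Of 5 Kelch-repeat F-box proteins that target PAL or CHS for breakdown, 3 were tested and 1 rose in ntrc-2cpab. Of all tested genes, 2.61% were called higher in this comparison. KFB01 stood at 1.06, 1.44 and 1.404 in the wild type, with 1.43, 2.05 and 1.72 for 2cpab and 3.002, 2.14 and 2.93 for ntrc-2cpab. The triple mutant lay above all other samples, and KFB01 rose by 0.68 ± 0.13 (SE, log2; adjusted p = 0.0299), which held in 4 of the 9 fits without a sample. KFB-CHS stood at 4.76 to 16.2 in the wild type, at 7.41 to 18.1 for 2cpab and at 12.6 to 24.7 for ntrc-2cpab, with overlapping groups. KFB50 ranged from 16.5 to 32.0 and overlapped too.

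The other 4 lists gave no call in any comparison. They were 4 further PAL and 4CL genes, all tested, 4 other flavonoid genes with 3 tested, 9 other regulators with 8 tested, and 4 genes of seed-coat proanthocyanidins, none of which reached the limit. BAN and TT2 of the last list were at 0 in every sample. The median log2 fold change in ntrc-2cpab was -0.21, -0.22 and -0.25 for the first 3 of these lists. In 2cpab against the wild type, and between the mutants, none of the 39 was called by limma.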

How the data were processed

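The authors deposited 1 table of log2 values for 33602 loci in 9 samples. The values have the form log2(abundance + 1), as seen from the values themselves. FastQC, HISAT2, StringTie and the build TAIR10 are named per the submitters' processing notes. The sources used here do not give versions, the scaling between samples or whether the abundance is FPKM or TPM. In every sample the 75th percentile was 2.7483, and summed abundance ran between 960937 and 1029627. The depth is unknown, so precision rests on the spread between replicates.

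The 16384 genes averaging at least 1 in abundance were tested on the deposited log2 values with limma 3.58.1 in R 4.3.3 (lmFit, contrasts.fit, eBayes with trend). All 9 samples entered 1 fit (residual degrees of freedom: 6). Two-sided tests were used, with Benjamini-Hochberg adjustment within each comparison and calls at an adjusted p under 0.05. Rose and fell are used for calls. Fold changes on this scale understate those of low genes. The procedure was tested on simulated data.

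The 39 members and the other lists were chosen with earlier results of these data known. Named genes were the called members, a set of key enzymes and regulators, and, of other lists, called genes and up to 3 of the most abundant. Promoters, gene positions and names came from the RefSeq annotation of TAIR10.1, matched by locus. Coding sequences were compared with the other genes of that annotation. The labels do not say that replicate numbers pair the samples, and the main fit did not pair them. For same-numbered samples of different genotypes, deviations from the genotype mean correlated from -0.156 to 0.21. For differently numbered samples they correlated from -0.341 to 0.247. With 3 samples a genotype, these correlations cannot exclude a pairing. The alternatives were 18: offsets of 0.1 and 5, no limit on abundance, a limit of 5, quantile normalization, equal nuclear sums, array weights, a replicate block, only the 6 samples compared, and leaving out each sample.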

Additional observations from a re-analysis of the deposited data

How the results depend on the processing

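The count of members called lower in ntrc-2cpab against the wild type, 3 in the fit reported, was 0 with no limit on abundance and 0 with only the 6 samples of the comparison. With the replicate number as a block it was 1 (UGT75C1, adjusted p = 0.0462), though the labels do not say that the numbers pair the samples. Leaving out 1 sample gave 0 to 5. It was 3 with both offsets, quantile normalization, equal nuclear sums and array weights, and 2 with a limit of 5, where UGT75C1 was not tested. CHI, CHIL and UGT75C1 were below the wild type under every alternative run, with log2 fold changes of -0.63 to -0.32, -0.90 to -0.59 and -1.20 to -0.38 and adjusted p of 0.0374 to 0.123, 0.036 to 0.135 and 0.0188 to 0.0878. The counts of 0 in both other comparisons stayed 0 in all 18 alternatives. The late minus early difference moved by less than the pooled SD in each, but between ntrc-2cpab and the wild type it ran from -0.26 to 0.15 and so had no stable sign. Over all genes, 645 were called in ntrc-2cpab against the wild type, 232 with no limit, 357 with the block, 50 with only the 6 samples and 49 to 761 with a sample left out. In 2cpab 22 were called, 7 with no limit, 41 with equal nuclear sums, 164 with array weights, 9 with the block, 6 with only the 6 samples and 4 to 116 with a sample left out. Between the mutants 1 was called, 5 with no limit, 2 with only the 6 samples and 1 to 2 with a sample left out. The cause of these shifts was not tested. With 3 samples a genotype and unknown depth, differences within the spread of low genes such as DFR and LDOX cannot be resolved.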
